A study of Mus musculus with 6 samples.

Results

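The genes described here encode the ligands, antagonists, receptors, Smads and Id proteins of BMP and TGF-beta signalling, 39 of the 19937 genes with a measured value. They were named as a set from the pathway, without a cut on measured values but with earlier results of these data known. Each is read from the probe set that the platform annotation gives to that gene alone. All 39 had such a probe set, and none had a further one. The embryos were CD1 mice of stage E11.5, and the labels name no allele or treatment. The tissue was the AGM region, that is the dorsal aorta with the adjoining gonad and mesonephros. Cells with surface CD31 and without CD45 or Ter119 were sorted and divided into c-kit-positive and c-kit-negative populations, with 3 arrays each (6 in all). The labels mark both populations as time T0 and the replicates as biological, and do not say how many embryos each holds, so the p-values cover only how far these arrays differ among themselves.

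BMP and TGF-beta ligands bind pairs of type I and type II receptor kinases at the cell surface. The type I kinase then phosphorylates receptor-regulated Smads, which join Smad4 and enter the nucleus. BMPs act mainly through Smad1, Smad5 and Smad9, and TGF-beta and activin through Smad2 and Smad3. Smad6 and Smad7 block the pathway, and the Id genes, which encode inhibitors of helix-loop-helix transcription factors, are well-known BMP targets. In the AGM region, BMP4 is made beneath the ventral wall of the dorsal aorta, where haematopoietic stem cells emerge. In endothelium, BMP ligands of the circulation signal through the type I receptor Acvrl1 (ALK1) with the co-receptor endoglin (Eng) and the type II receptor Bmpr2.

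All differences that passed were falls, and they lay in ligands, receptors, a latency protein and 2 of the 3 Smads that BMP receptors phosphorylate. None passed among the 4 antagonists or the 4 Id genes of the set, where 7.41% of all genes passed in either direction. Outside the set, 6 of 26 further extracellular regulators fell, among them the BMP antagonist Fstl1 (4.22-fold). The other 20 did not pass, and 8 of the 26 differences were positive. In c-kit-positive cells 11 of the 39 genes were lower at an adjusted p under 0.05 (limma, adjusted over all genes), against 4.70% of all genes that were lower at this threshold. None was higher in limma, where 2.71% of all genes were. A positive difference at an unadjusted p under 0.05 was found for 2, Smad2 and Smad7, against 2264 of all 19937 genes. The 11 were the co-receptor Eng, the ligands Tgfb2, Bmp4 and Bmp5, the receptors Acvrl1, Bmpr2, Tgfbr2 and Acvr1, the latency protein gene Ltbp1, and Smad1 and Smad5. Their falls ran from 3.45-fold for Eng to 1.51-fold for Smad5. Of the 11, Acvr1, Tgfbr2, Smad1, Smad5 and Ltbp1 did not pass in at least 1 of 13 alternative settings. Over all 39 genes the median difference was -0.27 on the log2 scale and 31 differences were negative. Over all genes the median was 0.07 and 38.9% were negative.

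**Figure D1:**
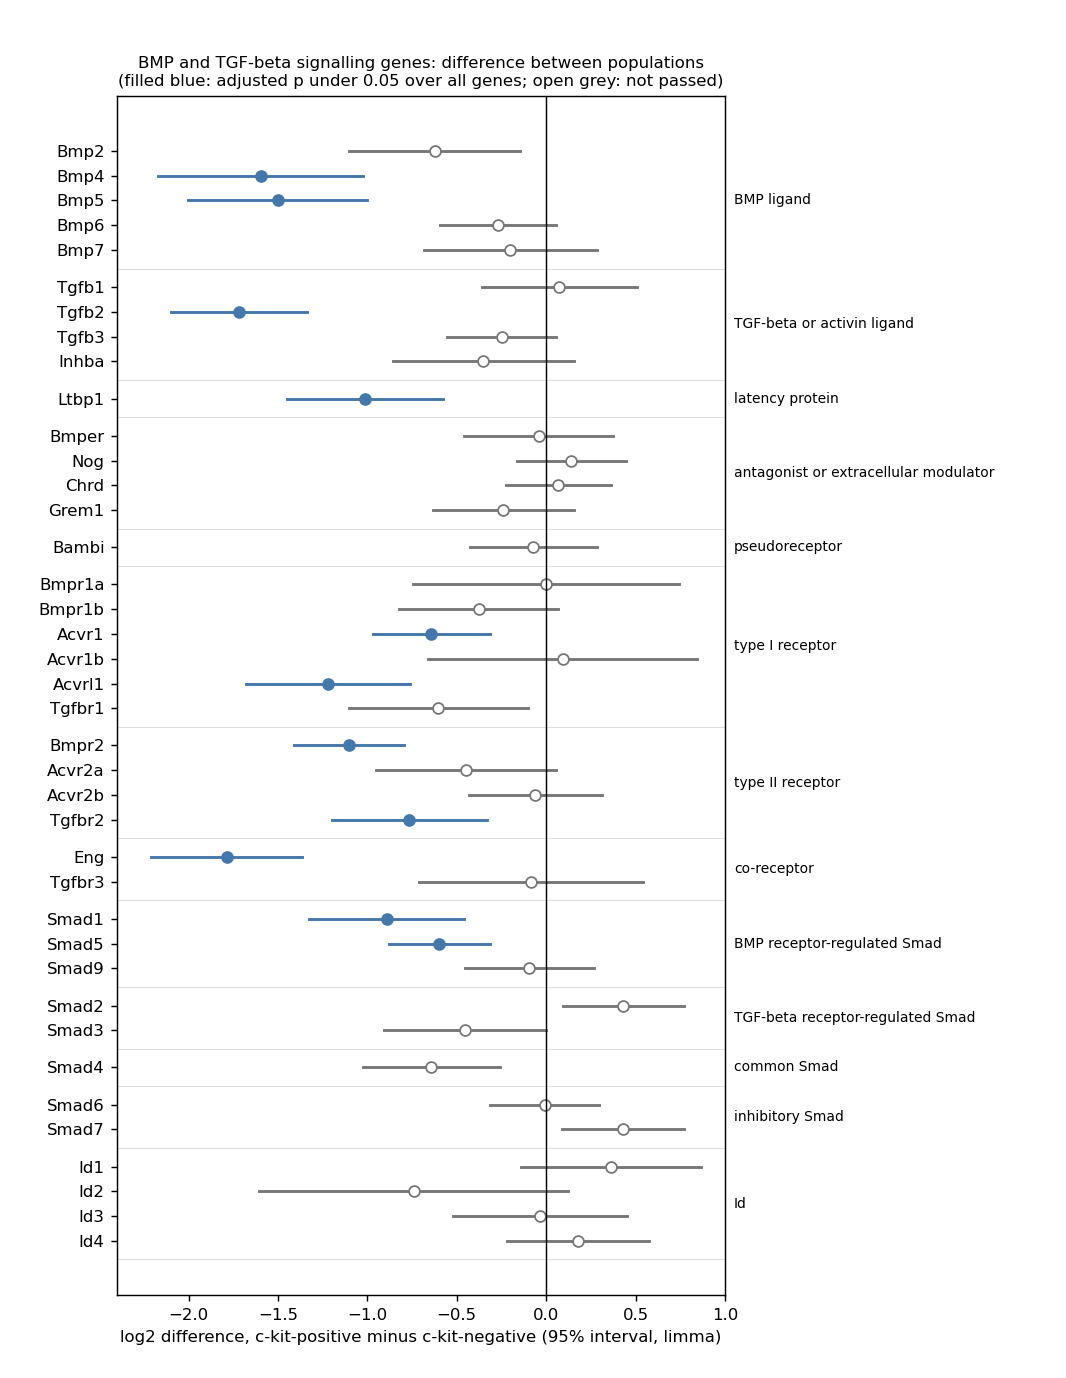
Log2 difference between the populations (c-kit-negative subtracted from c-kit-positive) and its 95% interval from limma for each of the 39 genes in order of role; filled blue points passed an adjusted p of 0.05 and open grey points did not. The 11 filled points all lie left of 0, from -1.79 (Eng) to -0.60 (Smad5), and the antagonists and Id genes have open points only.

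Other properties of the arrays moved with these genes. The 3 c-kit-negative arrays had mean levels of 8.37 to 8.44 over 20 pan-endothelial markers and the c-kit-positive arrays 5.80 to 6.09, and all 20 fell. Of 12 markers of mesenchyme and smooth muscle 6 fell (6.29 to 6.53 against 5.13 to 5.33), and of 12 primordial germ cell markers 10 rose (7.06 to 7.14 against 8.34 to 8.62). Of 9 haematopoietic markers 3 rose (6.94 to 7.15 against 7.61 to 7.71). The 10 markers of mesonephric and gonadal epithelium stood at 5.63 to 5.98 against 6.01 to 6.25. Of these 10, 2 rose (Cdh1 and Epcam) and the other 8 did not pass, 2 of them with negative differences (Wt1 and Emx2). Macrophage markers stood at 6.35 to 7.42 against 5.97 to 6.04 (3 of 11 fell), platelet markers at 6.58 to 7.70 against 5.72 to 6.16 (2 of 6 fell), erythroid markers at 7.24 to 8.02 against 5.98 to 6.19 (3 of 6 fell) and neural markers at 5.32 to 5.87 against 5.08 to 5.25 (1 of 4 fell). Of the sort genes, Kit was higher by 1.33 in c-kit-positive cells, Pecam1 stood at 9.13 against 10.02, and Ptprc, which encodes CD45, ran from 8.21 to 9.40 over the 6 arrays. In these bulk samples fewer cells of a type and less RNA per cell cannot be told apart, and the part of cell makeup in the differences below was not tested.

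Promoter sequences are shown for the genes that passed in the fit and in all 13 alternative settings (Bmp4, Bmp5, Tgfb2, Bmpr2 and Eng of those 6 genes had an entry), because these are the differences that rest least on a choice of method. Id3, a BMP target gene that did not pass, is shown beside them. Each sequence is the 250 bases before the RefSeq start site in GRCm38.p6, read 5′ to 3′ on the gene's strand. The windows lie at chr2:32646345-32646594 (plus strand), chr1:186705990-186706239 (minus strand), chr14:46390670-46390919 (minus strand), chr9:75775115-75775364 (plus strand), chr1:59764029-59764278 (plus strand) and chr4:136143572-136143821 (plus strand). Capitals mark every match on either strand to 5 motifs: the Smad element CAGAC, the GC-rich BMP response element GGCGCC, the ETS cores CCGGAA and CAGGAA, and the GATA site AGATAA.
Eng: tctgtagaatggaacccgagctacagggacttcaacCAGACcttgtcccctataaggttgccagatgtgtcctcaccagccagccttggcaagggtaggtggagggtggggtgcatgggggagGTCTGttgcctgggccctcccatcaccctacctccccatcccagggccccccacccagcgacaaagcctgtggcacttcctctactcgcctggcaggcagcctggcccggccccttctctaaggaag
Tgfb2: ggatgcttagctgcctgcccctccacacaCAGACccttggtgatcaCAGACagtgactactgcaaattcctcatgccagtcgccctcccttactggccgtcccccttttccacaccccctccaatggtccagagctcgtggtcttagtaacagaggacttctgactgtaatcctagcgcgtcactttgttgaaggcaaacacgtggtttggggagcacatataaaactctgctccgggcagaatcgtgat
Bmp4: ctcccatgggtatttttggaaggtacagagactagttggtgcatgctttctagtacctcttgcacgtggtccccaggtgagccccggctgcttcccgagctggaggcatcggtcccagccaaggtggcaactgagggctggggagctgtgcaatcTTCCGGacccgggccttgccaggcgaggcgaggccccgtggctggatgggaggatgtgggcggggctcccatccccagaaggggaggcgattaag
Bmp5: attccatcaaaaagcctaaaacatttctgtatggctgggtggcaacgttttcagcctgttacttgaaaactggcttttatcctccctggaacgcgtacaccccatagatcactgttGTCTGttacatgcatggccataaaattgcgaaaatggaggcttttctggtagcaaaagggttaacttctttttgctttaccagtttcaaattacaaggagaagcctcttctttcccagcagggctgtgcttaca
Bmpr2: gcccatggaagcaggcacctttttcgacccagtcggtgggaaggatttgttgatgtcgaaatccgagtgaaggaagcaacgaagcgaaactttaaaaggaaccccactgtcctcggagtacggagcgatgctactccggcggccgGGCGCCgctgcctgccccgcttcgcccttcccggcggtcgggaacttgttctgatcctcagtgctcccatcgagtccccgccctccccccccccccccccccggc
Id3: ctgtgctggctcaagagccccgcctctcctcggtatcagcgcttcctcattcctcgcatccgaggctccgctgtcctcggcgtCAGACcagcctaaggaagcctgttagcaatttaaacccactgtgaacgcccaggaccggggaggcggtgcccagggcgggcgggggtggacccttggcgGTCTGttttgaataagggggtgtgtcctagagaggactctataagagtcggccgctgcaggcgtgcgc

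The windows of Eng, Tgfb2 and Id3 each held 2 CAGAC elements, that of Bmp5 held 1, that of Bmpr2 held 1 GGCGCC, and that of Bmp4 held 1 CCGGAA. None of the 5 motifs contains another, and their matches are a description of letters, not of binding. The promoter table used here matched 28 of the 39 genes, 10 of them among those that fell, and the other 11 were not analysed for motifs. CAGAC stood in a window of 6 of those 10 genes and of 7 of the other 18, and in 42.2% of 32817 promoter windows of the same length. GGCGCC stood in 2 of the 10, in 7 of the 18 and in 9.6% of all windows. CCGGAA stood in 3 of the 10, in 1 of the 18 and in 12.0% of all windows, CAGGAA in 1, 2 and 25.7%, and AGATAA in 1, 0 and 10.0%. Genes with several start sites counted as holding a motif if any window did. Whether any of these motifs bears on the differences was not tested.

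Among the BMP ligands, Bmp4 and Bmp5 fell. Bmp4, the BMP most studied in the AGM region, was at 7.41, 7.75 and 7.73 in the c-kit-negative arrays and at 6.47, 5.47 and 6.16 in the c-kit-positive arrays. The populations did not overlap, and the lowest array was c-kit-positive replicate 2. Its mean of 6.03 ± 0.51 against 7.63 ± 0.19 (SD, n = 3 each) gave a difference of -1.60 ± 0.25 (SE, 3.03-fold lower, adjusted p = 0.00675, limma). Bmp5, a BMP of mesenchyme and skeletal development, was at 6.26, 5.61 and 6.32 in c-kit-negative and 4.47, 4.82 and 4.39 in c-kit-positive arrays. All 3 c-kit-positive values lay below the c-kit-negative ones, and the fall was 2.83-fold (-1.50 ± 0.22, SE, adjusted p = 0.00458, limma).

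The other BMP ligands did not pass. Bmp2, the closest relative of Bmp4, was at 6.39, 6.05 and 5.94 against 5.14, 5.85 and 5.51. These arrays did not overlap either, but the difference did not pass (-0.62, 95% interval -1.10 to -0.14, adjusted p = 0.127, limma). Bmp6, known from iron metabolism, differed by -0.27 (interval -0.60 to 0.05), again without overlap. Bmp7, a BMP of the developing kidney, differed by -0.20 (interval -0.68 to 0.28) with overlapping arrays. A p that misses the threshold does not show that these genes were alike in both populations.

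Of the TGF-beta and activin ligands only Tgfb2 passed. It stood at 7.44, 7.27 and 7.44 in c-kit-negative and 5.50, 5.51 and 5.98 in c-kit-positive arrays. The populations were far apart on every array, with a 3.29-fold fall (-1.72 ± 0.17, SE, adjusted p = 0.000608, limma), the smallest p of the 39 genes. Tgfb1, the TGF-beta isoform of blood and endothelial cells, was at 8.27, 7.94 and 8.01 against 7.78, 8.38 and 8.28, with overlap and a difference of 0.07 (interval -0.36 to 0.51). Tgfb3 differed by -0.25 (interval -0.55 to 0.06) without overlap, and Inhba, which encodes the activin A subunit, by -0.35 (interval -0.86 to 0.15) with overlap. The isoforms Tgfb1 and Tgfb2 therefore have intervals that share no value. A test between genes was not run.

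TGF-beta is secreted in a latent complex that is tethered to matrix by latency proteins, of which Ltbp1 is one. Ltbp1 was at 6.88, 6.47 and 6.99 in c-kit-negative and 5.56, 5.70 and 6.04 in c-kit-positive arrays, without overlap. It fell 2.02-fold (-1.02 ± 0.19, SE, adjusted p = 0.0154, limma). The call was lost with 1 array left out in 4 cases: the adjusted p was 0.0597 without c-kit-negative replicate 1, 0.0565 without c-kit-negative replicate 3, 0.0562 without c-kit-positive replicate 1 and 0.0516 without c-kit-positive replicate 2 (limma).

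The 4 secreted antagonists of the set showed no difference that passed: 0 of 4 in limma, and 0 at an unadjusted p under 0.05. As 7.41% of all genes passed in either direction, 0 of 4 cannot be told from that share. Nog (noggin), which binds BMP ligands, was at 5.44, 5.49 and 5.31 against 5.66, 5.53 and 5.48, a difference of 0.14 (interval -0.16 to 0.44). Chrd (chordin) differed by 0.07 (interval -0.23 to 0.36) and Grem1 (gremlin) by -0.24 (interval -0.64 to 0.16). Bmper, an endothelial modulator of BMP4, stood at 5.36, 5.38 and 5.81 against 5.27, 5.44 and 5.73 (difference -0.04, interval -0.46 to 0.38). The arrays of both populations overlapped for all 4 genes. Bambi, a transmembrane pseudoreceptor without a kinase, did not pass either, at 7.08, 7.13 and 7.14 against 7.00, 6.83 and 7.31 (difference -0.07, interval -0.43 to 0.28). The values carry no detection calls, so whether these genes were expressed above background is not known here.

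Of the 12 receptors and co-receptors 5 passed, all lower, against 4.70% of all genes that were lower, and their median difference was -0.53 over the 12. Of the 5, Tgfbr2 and Acvr1 lost the call in 9 and 8 of 13 alternative settings. Eng, the co-receptor of Acvrl1 in endothelium, stood at 8.15, 8.47 and 7.90 in c-kit-negative and 6.55, 6.45 and 6.15 in c-kit-positive arrays. No other member differed by as much (-1.79 ± 0.19, SE, adjusted p = 0.000871, limma), and among all 19937 genes its difference had rank 231 from the lowest. Acvrl1 was at 7.15, 7.63 and 6.92 against 6.06, 6.17 and 5.82, a 2.33-fold fall (-1.22 ± 0.20, SE, adjusted p = 0.00843, limma). Bmpr2, the type II partner of BMP type I receptors, was at 9.40, 9.61 and 9.35 against 8.31, 8.40 and 8.33. Its arrays were tightly grouped on both sides (SD 0.14 and 0.05), and it fell 2.15-fold (-1.10 ± 0.13, SE, adjusted p = 0.00199, limma). The 3 genes of the endothelial Eng, Acvrl1 and Bmpr2 receptor complex all fell, on arrays where all 20 pan-endothelial markers were also lower, by a median of -2.30.

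**Figure D2:**
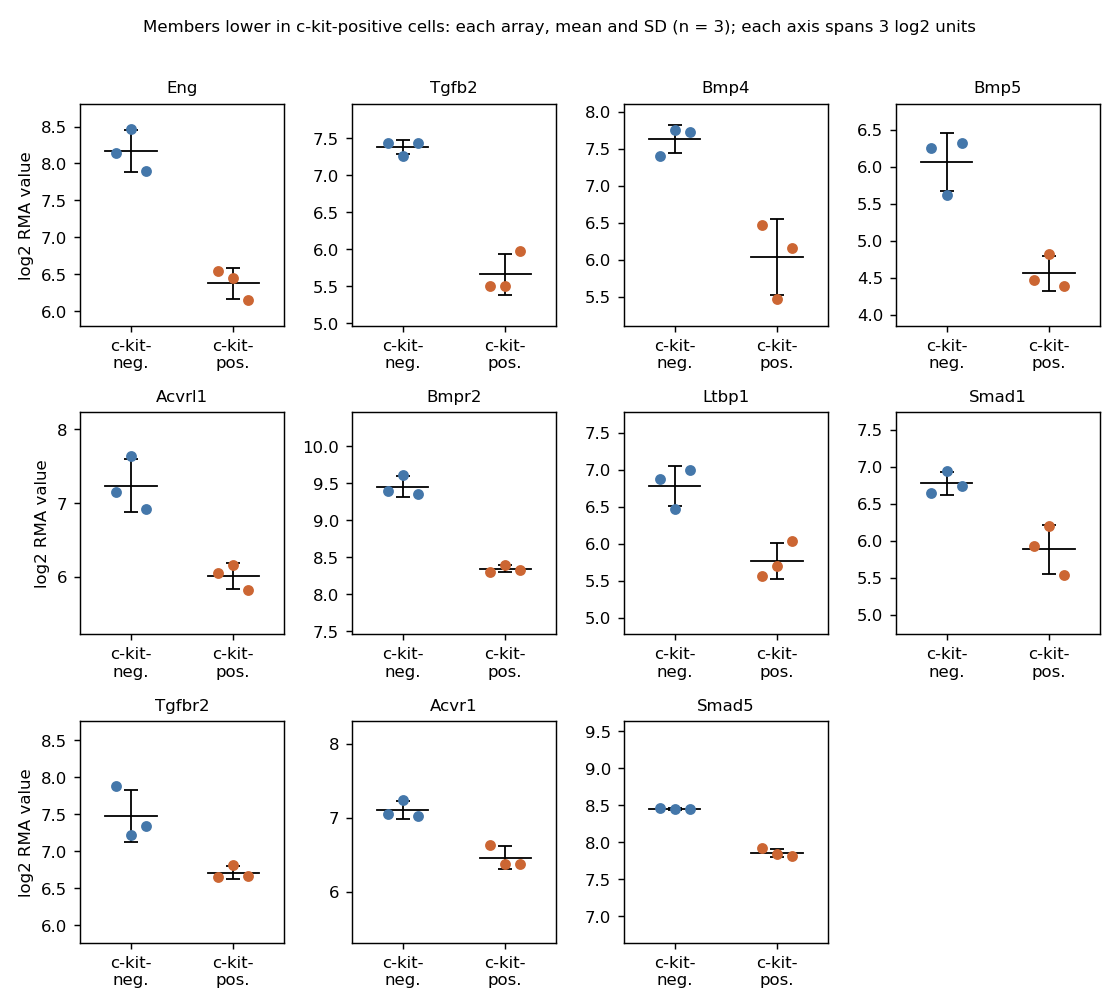
Log2 value on each array of the 11 genes that were lower in c-kit-positive cells, with group mean and SD (n = 3); every axis spans 3 log2 units. The c-kit-positive points lie below all c-kit-negative points in each of the 11 panels, and the gap narrows from Eng (-1.79) to Smad5 (-0.60).

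Tgfbr2, the type II receptor of TGF-beta, was at 7.88, 7.22 and 7.34 against 6.65, 6.82 and 6.67, with c-kit-negative replicate 1 high. It fell 1.70-fold just inside the threshold (-0.76 ± 0.19, SE, adjusted p = 0.0471, limma). Leaving out any array other than c-kit-negative replicate 2 ended this call, with adjusted p between 0.0819 (without c-kit-negative replicate 3) and 0.129 (without c-kit-positive replicate 1, limma), and quantile normalization gave 0.0581. Acvr1 (ALK2), a type I receptor for BMPs, was at 7.05, 7.24 and 7.02 against 6.64, 6.37 and 6.38, a 1.56-fold fall (-0.64 ± 0.14, SE, adjusted p = 0.0316, limma). Its call was lost without any array other than c-kit-positive replicate 1, with adjusted p from 0.0685 (without c-kit-negative replicate 3) to 0.103 (without c-kit-negative replicate 2, limma).

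The other type I receptors did not pass. Tgfbr1 (ALK5), the type I receptor of TGF-beta, was at 8.43, 8.03 and 8.12 against 7.81, 7.12 and 7.83, without overlap (difference -0.60, interval -1.11 to -0.10, adjusted p = 0.158, limma). Bmpr1a (ALK3), the broadly expressed BMP type I receptor, was at 7.20, 6.56 and 7.63 in c-kit-negative and 6.94, 6.72 and 7.73 in c-kit-positive arrays. The 2 means were both 7.13, but the arrays within each population spread over about a log2 unit, so the interval of the difference ran from -0.75 to 0.74. Bmpr1b (ALK6) differed by -0.38 (interval -0.82 to 0.07) and Acvr1b (ALK4), the activin receptor, by 0.09 (interval -0.66 to 0.84).

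Both activin type II receptors, which also take part in BMP signalling, had overlapping arrays. Acvr2a differed by -0.45 (interval -0.95 to 0.05) and Acvr2b by -0.06 (interval -0.43 to 0.31). Tgfbr3 (betaglycan), the co-receptor that presents TGF-beta2 to its receptors, was at 6.12, 6.99 and 6.65 against 6.06, 6.52 and 6.92 (difference -0.09, interval -0.71 to 0.54). The intervals of the co-receptors Eng and Tgfbr3 share no value, but no test between these genes was run.

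**Figure D3:**
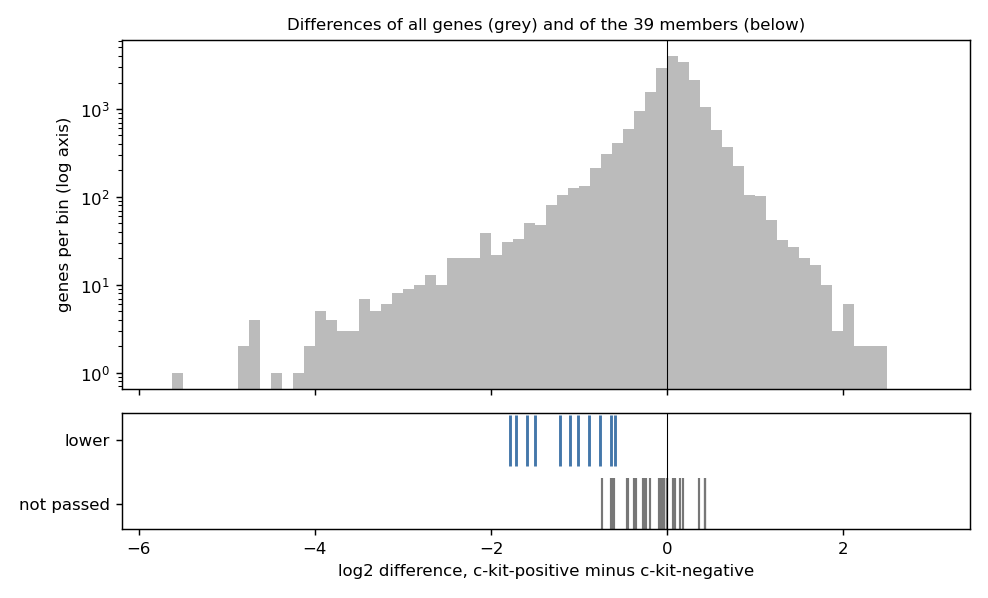
Histogram of the log2 differences, c-kit-positive minus c-kit-negative, of all 19937 genes on a log count axis, with a line below for each of the 39 genes. The long left tail of the histogram reaches past the lowest of the 39 (Eng, -1.79), and the highest of the 39 (Smad2 and Smad7, both 0.43) lie well inside the right side.

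Of the 8 Smads, 2 fell, against 4.70% of all genes that were lower, and both are among the 3 that BMP receptors phosphorylate. A difference between Smad classes was not tested. Of the Smads that BMP receptors phosphorylate, Smad1 was at 6.64, 6.94 and 6.75 in c-kit-negative and 5.92, 6.19 and 5.53 in c-kit-positive arrays, a 1.86-fold fall (-0.89 ± 0.19, SE, adjusted p = 0.0262, limma). Smad5 was at 8.47, 8.44 and 8.44 against 7.91, 7.84 and 7.81, a 1.51-fold fall (-0.60 ± 0.12, SE, adjusted p = 0.0236, limma). Neither overlapped. The c-kit-negative arrays of Smad5 had the smallest SD of the set in that population (0.01), and its c-kit-positive arrays had an SD of 0.06. Smad9 was at 5.93, 5.74 and 5.53 against 5.53, 5.57 and 5.81 (difference -0.10, interval -0.46 to 0.26).

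The Smad1 adjusted p was 0.0571, 0.0876 and 0.0729 when c-kit-negative replicates 1, 2 and 3 were dropped in turn (limma). It was 0.0703 when c-kit-positive replicate 1 was dropped and 0.0622 when replicate 3 of that population was. It still passed without c-kit-positive replicate 2 (adjusted p = 0.0207, limma), with differences from -0.72 to -1.05 over the 6 fits. Smad5 did not pass with any array left out, with adjusted p between 0.0507 (without c-kit-positive replicate 1) and 0.0777 (without c-kit-negative replicate 1, limma), although its difference stayed between -0.63 and -0.57.

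Of the Smads that TGF-beta and activin receptors phosphorylate, Smad2 was at 8.89, 8.75 and 8.62 against 9.00, 9.24 and 9.32. Its c-kit-positive arrays all lay above the c-kit-negative ones, with a difference of 0.43 (interval 0.09 to 0.77) that did not pass (adjusted p = 0.135, limma). Smad3 was at 7.24, 7.28 and 7.56 against 6.57, 6.88 and 7.27, with overlap and a difference of -0.45 (adjusted p = 0.237, limma). Smad4, the partner of both branches, was at 8.35, 8.26 and 8.64 against 7.67, 7.63 and 8.02. It did not overlap and lay just outside the threshold (difference -0.64, interval -1.03 to -0.26, adjusted p = 0.0575, limma). It passed under 4 of 13 alternatives, among them quantile normalization (adjusted p = 0.0393, limma) and the fit without c-kit-positive replicate 3 (0.04996).

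The inhibitory Smads were not among the falls. Smad6, which blocks BMP receptors most strongly, was at 6.27, 6.51 and 6.35 against 6.43, 6.30 and 6.38, a difference of -0.01 (interval -0.31 to 0.30). Smad7, which blocks both branches, was at 6.29, 6.56 and 6.29 against 6.98, 6.73 and 6.71. All 3 c-kit-positive values were above the c-kit-negative ones, by 0.43 on average (interval 0.09 to 0.77, adjusted p = 0.136, limma). The Smad7 interval lies above those of Smad1 and Smad5, which end at -0.46 and -0.32, but no test between these genes was run.

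**Figure D4:**
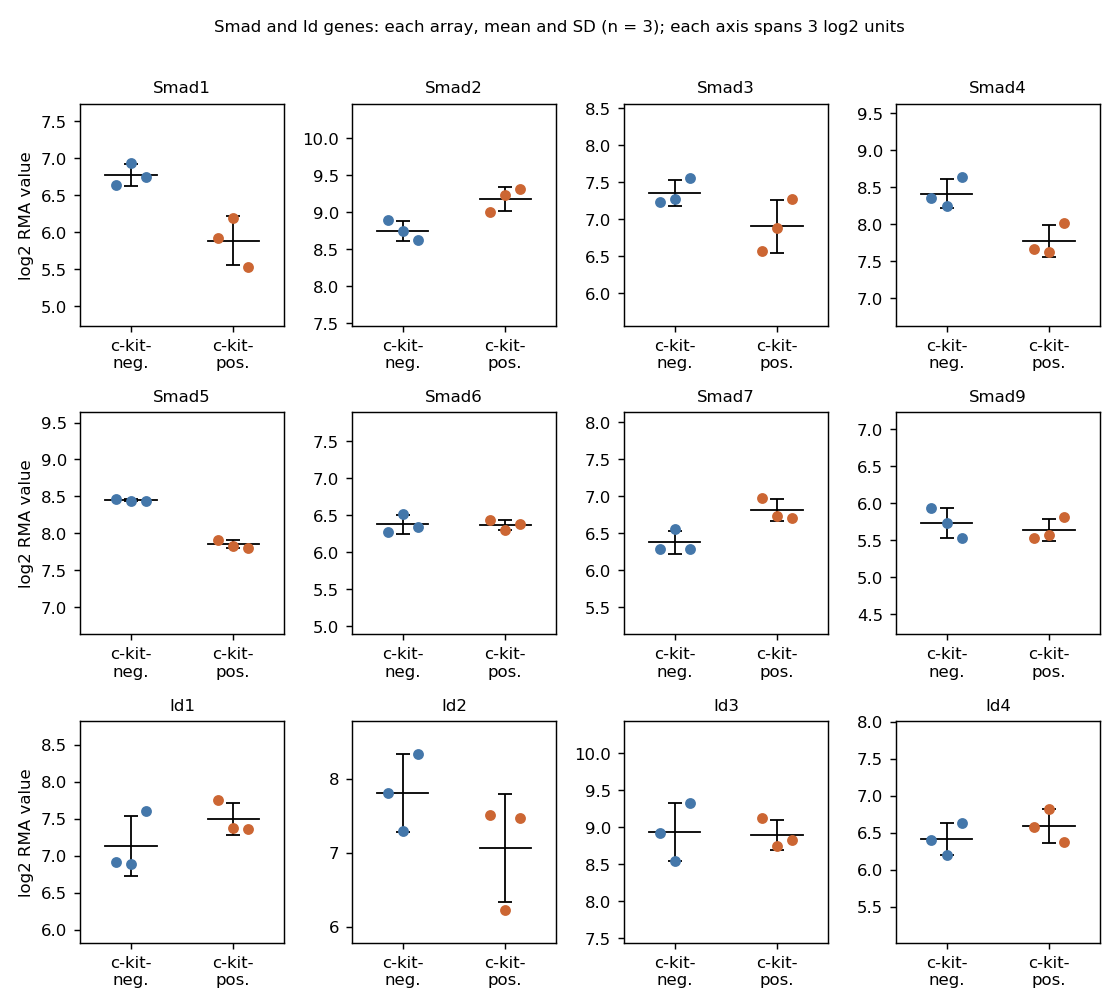
Log2 value on each array of the 8 Smad and 4 Id genes with group mean and SD (n = 3); every axis spans 3 log2 units. Smad1, Smad4 and Smad5 have c-kit-positive points below all c-kit-negative points, Smad2 and Smad7 have them above, and all 4 Id genes overlap.

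None of the 4 Id genes passed in limma, none had an unadjusted p under 0.05, and all 4 had overlapping arrays. Of all genes, 7.41% passed in either direction and 26.8% had arrays without overlap. With only 4 genes, 0 cannot be told from these shares. Id1, the most used readout of BMP signalling, was at 6.91, 6.90 and 7.60 in c-kit-negative and 7.75, 7.38 and 7.37 in c-kit-positive arrays. Its mean was higher by 0.36 (interval -0.14 to 0.87), with c-kit-negative replicate 3 inside the c-kit-positive range. Id2 was at 7.80, 7.29 and 8.34 against 7.51, 6.23 and 7.47, with c-kit-positive replicate 2 far below the rest. The difference of -0.74 had the widest interval of the 39 genes, from -1.60 to 0.12. Id3, which acts with Id1 in vessels, was at 8.92, 8.55 and 9.33 against 9.12, 8.75 and 8.82 (difference -0.03, interval -0.52 to 0.45). Id4 was at 6.40, 6.19 and 6.63 against 6.57, 6.82 and 6.38 (difference 0.18, interval -0.22 to 0.58). The intervals of Id1 and Id4 share no value with that of Smad1 (-1.33 to -0.46), while those of Id2 and Id3 overlap it. No test between these genes was run.

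Separation of the arrays gave the same picture. For 16 of the 39 genes all c-kit-positive values lay below all c-kit-negative values, against 10.6% of all genes, and for 2 genes (Smad2 and Smad7) they lay above, against 16.2% of all genes. In either direction that is 18 of 39, against 26.8% of all genes. The 16 were the 11 that passed with Bmp2, Bmp6, Tgfb3, Tgfbr1 and Smad4. The groups of the remaining 21 genes overlapped.

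Leaving out single arrays shortened the list of calls. It held 6 genes when c-kit-negative replicate 1 or 3 was dropped and 7 when c-kit-positive replicate 1 or 2 was. Dropping c-kit-negative replicate 2 or c-kit-positive replicate 3 left 8. Bmp4, Bmp5, Bmpr2, Acvrl1, Eng and Tgfb2 passed in all of these fits and in the 7 other settings tried, and their adjusted p never exceeded 0.0338 (Acvrl1, limma).

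**Figure D5:**
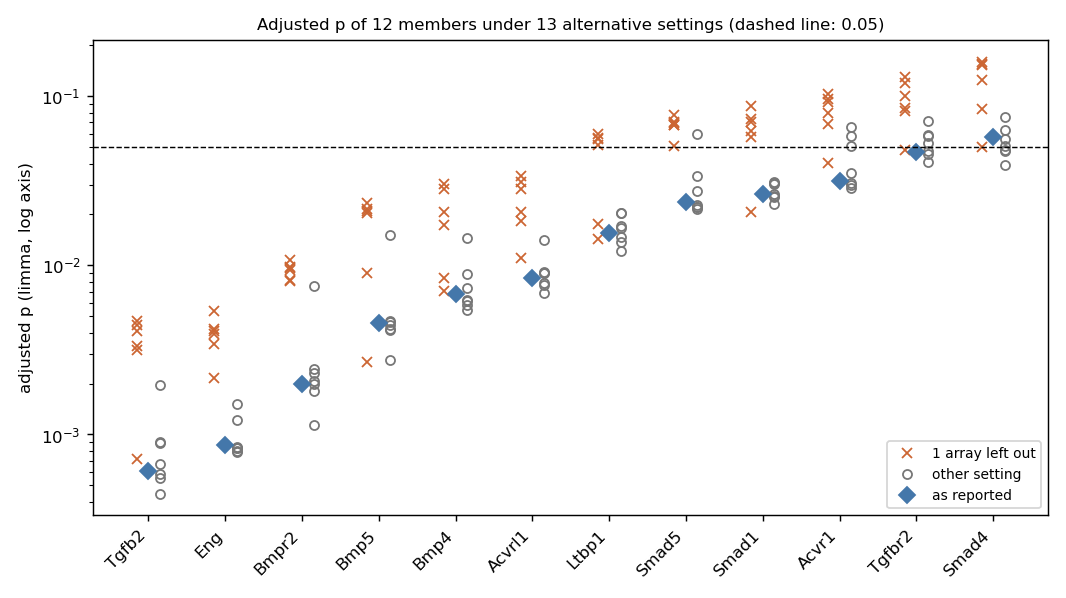
Adjusted p from limma, on a log axis, of the 11 genes that passed and of Smad4; diamonds are the values as reported, crosses leave out 1 array and circles are other settings, with the dashed line at 0.05. Tgfb2, Eng, Bmpr2, Bmp5, Bmp4 and Acvrl1 stay below the line throughout, and the other genes have points on both sides.

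Further genes of the pathway were described from a list of 102, of which 97 had a probe set of 1 gene. Of these 15 were lower and 5 higher in c-kit-positive cells at an adjusted p under 0.05 (limma), with a median difference of -0.02. Over all genes 4.70% were lower and 2.71% higher, with a median of 0.07, and these shares stand beside each list below. With 1 array dropped the number higher was 2 (any c-kit-negative array, or c-kit-positive replicate 1) or 3 (c-kit-positive replicate 2 or 3). Extracellular regulators and matrix proteins gave 6 falls among 26 genes and no rise in limma. A positive difference at an unadjusted p under 0.05 was found for 0 of them, against 2264 of all 19937 genes. Fbn2, a fibrillin that stores BMP and TGF-beta complexes in matrix, fell 5.23-fold (8.00, 7.99 and 8.10 against 5.52, 5.82 and 5.58). Fstl1, a secreted follistatin-like BMP antagonist, fell 4.22-fold, Bmp1, the protease that cleaves chordin, 2.33-fold, and Ltbp4, a latency protein like Ltbp1, 2.04-fold.

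Among 22 further ligands Lefty2, a Nodal inhibitor, was the only one to pass and rose 1.64-fold (5.01, 4.58 and 5.08 against 5.71, 5.40 and 5.70, adjusted p = 0.0486, limma). That call was lost with any array left out, at adjusted p from 0.0591 (without c-kit-positive replicate 2) to 0.138 (without c-kit-positive replicate 1, limma). With 22 genes, 1 rise cannot be told from the 2.71% of all genes that were higher. Of 8 further receptors and co-receptors 1 fell, Nrp1, which also binds VEGF (16.3-fold), and 1 rose. The shares over all genes were 4.70% lower and 2.71% higher. The rise was that of Tdgf1 (Cripto), the Nodal co-receptor that pluripotent cells carry, at 6.08, 6.39 and 6.68 against 7.94, 8.04 and 7.50. It rose 2.71-fold (1.44 ± 0.21, SE, adjusted p = 0.00422, limma) on arrays where 10 of 12 germ cell markers rose too. The part of germ cells in this rise was not tested.

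Of 26 intracellular regulators 5 fell and none rose in limma, against 4.70% and 2.71% of all genes. A positive difference at an unadjusted p under 0.05 was found for 4 of them, against 2264 of all 19937 genes. Zeb1, a Smad-binding repressor of epithelial genes, fell 2.48-fold and Zfyve16 (endofin), a Smad anchor of endosomes, 1.73-fold. Smurf1 and Smurf2, ubiquitin ligases that turn over Smads and receptors, fell 1.76-fold and 1.59-fold. Both probe sets of Smurf2 had a difference of -0.67, but the second did not pass (adjusted p = 0.124 over all probe sets, limma), nor did their mean (adjusted p = 0.0573). Smurf2 passed with 1 array left out only without c-kit-positive replicate 3, with adjusted p otherwise from 0.0599 (without c-kit-negative replicate 2) to 0.107 (without c-kit-negative replicate 1), and Zfyve16 gave 0.0549 without c-kit-negative replicate 1 (limma).

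Of 15 target genes measured, 3 fell and 3 rose, against 4.70% and 2.71% of all genes. The falls were those of the TGF-beta targets Tgfbi, an extracellular matrix protein (7.82, 7.87 and 7.77 against 5.86, 6.21 and 6.04, 3.44-fold), Tgfb1i1 (Hic-5), a focal adhesion protein (2.99-fold), and Snai2 (Slug), a repressor active in mesenchyme (2.98-fold). Msx2, a homeobox gene that BMPs induce, rose 2.04-fold, from 6.21, 6.09 and 5.82 to 6.83, 7.07 and 7.29 (adjusted p = 0.00918, limma). The other rises, named after their values were seen, were those of Gata2, a factor of blood progenitors and endothelium (1.83-fold), and Prdm1, a germ cell specification factor that BMP4 induces (1.52-fold). Prdm1 did not pass with any array left out, at adjusted p from 0.0507 (without c-kit-negative replicate 3) to 0.0925 (without c-kit-negative replicate 1, limma). Gata2 passed with 1 array left out only without c-kit-positive replicate 3, with adjusted p otherwise from 0.0663 (without c-kit-positive replicate 1) to 0.1002 (without c-kit-negative replicate 3, limma). Msx2 passed in all 13 alternatives. The other 9 target genes did not pass: Snai1 (-0.44), Dlx5 (-0.23), Atoh8 (-0.21), Ccn2 (-0.19), Hey1 (-0.09), Tbx20 (-0.01), Msx1 (-0.01), Gata3 (0.18) and Junb (0.22). Over the 15 the median difference was -0.09 and 10 were negative. A difference between targets of BMP and of TGF-beta was not tested. Mesenchymal markers were lower (median -0.90) and germ cell markers higher (median 1.34) on the same arrays.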

How the data were processed

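Total RNA of the 6 sorted samples was amplified from 5 ng each with a whole-transcript kit and labelled with biotin, per the labels' protocols. Amplifying so little RNA can bias the ratios of transcripts to each other. Background signal makes the differences of dim genes look smaller than they are. The deposited values are log2 values that the authors made with RMA, per the submitters' processing notes. Its version is not given in the sources used here, and the log2 scale follows from the range of the values, 1.22 to 13.7, with array medians between 5.42 and 5.52, and no 2 arrays were identical. Depth has no meaning for arrays, whose number limits the precision.

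Of 34760 probe sets, 21640 had 1 gene symbol in the platform annotation, 1321 had several and 11799 were not listed. The 21640 covered 19937 genes, and the probe set with the highest mean was used where a gene had several. limma 3.58.1 (R 4.3.3; lmFit, then eBayes, two-sided) gave the comparison, without a filter or a block, and p-values were adjusted by Benjamini and Hochberg's method across the 19937 genes. Differences are c-kit-positive minus c-kit-negative. The exact permutation test of 3 against 3 arrays cannot go below 0.1, so none was run. The fit was tested on simulated data. The 39 genes, the further pathway genes and the marker lists were chosen with earlier results of these data known. All 39 genes are named, and from each further list up to 4 that passed with the smallest p. Gata2, Prdm1 and the target genes that did not pass fall outside this rule and were named after their values were seen. Promoter windows came from RefSeq (GRCm38.p6). Alternatives were other normalizations, a filter on dim genes, averaged probe sets, another variance prior, array weights, the replicate block and leaving out each array.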

Additional observations from a re-analysis of the deposited data

How the results depend on the processing

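The 39 genes kept a count of 9 to 12 falls and 0 rises under all 7 alternatives that used all arrays (37 of the 39 were tested where the dimmest 30% of genes were left out, without Bmpr1b and Tgfb3), and 6 to 8 falls and 0 rises with 1 array left out. Those fits have fewer samples. Over all genes, leaving out 1 array gave 276 to 369 higher and 670 to 745 lower genes, against 540 and 937. For the further pathway genes the same fits gave 2 to 3 higher, against 5, and 11 to 13 lower, against 15. With the replicate block, 9 of the 39 genes fell, 8 of them among the 11 (Acvr1, Tgfbr2 and Smad5 were lost and Smad4 was gained). Smurf2 and Prdm1 did not pass with it (adjusted p = 0.0557 and 0.0683, limma), and over all genes 879 were lower and 476 higher. The block lowered the SE of Bmpr1a from 0.33 to 0.16 and the adjusted p of Id2 from 0.313 to 0.0713 (limma), and neither passed. Arrays of 1 number did not deviate together from their group means (correlations across genes 0.00071, 0.0239 and 0.059, and not every array correlated best with its own number). Whether they are paired beyond the number is not known here, and calls lost with the block are not read as weaker effects. Quantile normalization gave 10 falls, without Acvr1 and Tgfbr2 and with Smad4. Median centring gave 10, and the intensity trend with a robust prior 9. None of the called genes changed sign. Of the uncalled, 10 changed sign in at least 1 setting (Bmper, Bambi, Bmpr1a, Acvr1b, Acvr2b, Tgfb1, Tgfbr3, Smad6, Smad9 and Id3). The median difference of all genes lay between 0.05 and 0.10 in every setting, and that of the 39 genes between -0.36 and -0.22. Without detection calls, a small difference of a dim gene cannot be told from array background.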
